A study of Mus musculus with 4 samples.

Results

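The mitochondrial ribosomal proteins were followed through every gene whose symbol was Mrpl or Mrps with a number and at most 1 further letter, which gave 77 of the 35857 genes listed. Messenger RNA had been measured in glial progenitors made from neural stem cells of the embryonic mouse cerebral cortex (strain C57BL/6), 24 hr after glial differentiation was induced. There were 2 control libraries of wild-type genotype and 2 libraries of genotype Qk-/-, called Qk_KO, in which Qk, encoding Quaking, a regulator of RNA splicing and stability, is knocked out. The labels do not say how the allele was made, at which age the cells were taken, or whether replicates are independent cultures, so p-values measure the spread between these libraries, which may be technical. Abundance was given as TPM, a share of all transcripts corrected for transcript length, which keeps no read depth, and the depth behind each value is therefore unknown.

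The mitochondrial ribosome translates the few proteins encoded by mitochondrial DNA, which are core subunits of the respiratory chain and ATP synthase. Its RNAs come from the mitochondrial genome, whereas its proteins are all encoded in the nucleus, made in the cytosol and imported. Some of these proteins have counterparts in the bacterial ribosome, others were added in the course of mitochondrial evolution, and inherited defects in several of them cause combined deficiencies of the respiratory chain that often affect the brain. By textbook assignment, 50 of the 77 genes encode large-subunit proteins, 30 with and 20 without a bacterial counterpart, and 26 encode small-subunit proteins, 16 with and 10 without one. Mrps18a and Mrps30, named for the small subunit, were counted with the large subunit, where their proteins sit. The remaining gene, Mrps36, encodes a protein now placed in the oxoglutarate dehydrogenase complex.

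Promoters of these genes were examined next, because factors of the NRF1 and ETS (GABP) families are known regulators of nuclear genes for mitochondrial proteins. RefSeq promoter sequences on GRCm38.p6, from 250 bases before to 50 after a transcript start, were at hand for 68 of the 77 genes, with 74 promoters in all. On either strand, an NRF1-type motif, GCGC and TGCGC separated by 1 base of any kind, was present in 17.6% of the 74 promoters and in 4.6% of all 32851 promoters, or 9.77% of the 13390 promoters of genes tested here. CCGGAAG (ETS-type) was present in 33.8%, 8.86% and 16.9%, and AAGATGGCG (YY1-type) in 10.8%, 1.4% and 2.88%, in the same order. At least 1 of the 3 motifs was found in 40 of the 74 promoters, and ETS-type and YY1-type matches overlapped in 0 of them. A match describes letters in a window and is not evidence of binding. The promoters below are examples, each 5′ to 3′ with every match in capitals. They belong to 3 genes from the low end of the comparison that follows (Mrpl17, Mrpl9 and Mrps18a) and 2 from its high end (Mrps21 and Mrpl44). NRF1-type and ETS-type matches occurred among them at both ends. The only YY1-type match shown is in Mrps18a, but Mrps11 and Mrps24, also from the high end, each had 1 too. For Mrps34 and Mrpl4, the genes with the lowest and the highest log2 fold change, no promoter was at hand.
Mrpl17 (chr7:105811038-105811337, minus strand): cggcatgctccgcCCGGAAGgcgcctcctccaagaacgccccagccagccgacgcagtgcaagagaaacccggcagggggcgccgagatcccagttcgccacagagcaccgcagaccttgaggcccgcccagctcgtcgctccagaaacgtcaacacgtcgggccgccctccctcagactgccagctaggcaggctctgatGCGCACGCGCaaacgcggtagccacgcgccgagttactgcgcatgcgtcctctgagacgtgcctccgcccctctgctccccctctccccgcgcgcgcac
Mrpl9 (chr3:94443086-94443385, plus strand): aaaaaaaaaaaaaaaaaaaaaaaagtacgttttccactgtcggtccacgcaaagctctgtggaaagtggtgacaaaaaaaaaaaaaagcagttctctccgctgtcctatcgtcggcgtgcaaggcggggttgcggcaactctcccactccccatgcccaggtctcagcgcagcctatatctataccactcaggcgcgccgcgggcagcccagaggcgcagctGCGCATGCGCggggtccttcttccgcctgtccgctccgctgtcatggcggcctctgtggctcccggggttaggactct
Mrps18a (chr17:46110754-46111053, plus strand): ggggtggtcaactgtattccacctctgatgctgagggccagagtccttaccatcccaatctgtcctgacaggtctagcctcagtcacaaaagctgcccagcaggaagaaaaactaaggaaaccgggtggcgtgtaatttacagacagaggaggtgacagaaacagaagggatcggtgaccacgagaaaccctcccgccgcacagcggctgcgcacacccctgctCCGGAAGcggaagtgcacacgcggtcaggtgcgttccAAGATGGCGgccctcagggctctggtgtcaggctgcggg
Mrps21 (chr3:95871465-95871764, minus strand): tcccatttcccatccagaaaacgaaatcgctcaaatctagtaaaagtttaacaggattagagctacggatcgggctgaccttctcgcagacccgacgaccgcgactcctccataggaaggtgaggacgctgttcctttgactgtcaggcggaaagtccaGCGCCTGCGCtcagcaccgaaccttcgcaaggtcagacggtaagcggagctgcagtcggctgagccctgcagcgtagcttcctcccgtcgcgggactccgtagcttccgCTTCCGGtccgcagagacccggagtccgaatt
Mrpl44 (chr1:79775768-79776067, plus strand): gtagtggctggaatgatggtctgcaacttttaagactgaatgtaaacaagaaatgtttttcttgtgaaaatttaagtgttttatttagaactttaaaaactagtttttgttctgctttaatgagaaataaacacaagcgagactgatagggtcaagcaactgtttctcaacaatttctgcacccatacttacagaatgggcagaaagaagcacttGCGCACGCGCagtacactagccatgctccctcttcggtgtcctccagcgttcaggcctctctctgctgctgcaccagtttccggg

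Qk itself was checked first. Its control values were 208 and 215 TPM and its Qk_KO values 36.1 and 43.7 TPM, so all 4 libraries stood on the side their labels give. On the log2 scale the difference was -2.38 (SE 0.12), and limma gave an adjusted p of 0.00708. Each library listed 18846 to 19387 genes above 0 TPM, and Pearson's r of log2(TPM + 1) across 13260 genes was 0.985 between controls, 0.978 between Qk_KO libraries and 0.951 to 0.973 between groups. The neural progenitor genes Sox2, at 195 to 239 TPM, and Fabp7, at 2354 to 3144 TPM, were high in all 4 libraries. Of other progenitor genes, Vim was at 2346 to 3373, Hes5 at 125 to 152 and Nes at 50.3 to 63.3 TPM. Pax6, at 17.9 to 48.9 TPM, and Hes1, at 14.7 to 17.3 TPM, were lower. The endothelial genes Cdh5, Cldn5, Tek, Tie1 and Pecam1 were at most 0.26 TPM. Kdr, also an endothelial marker, was at 2.59 and 3.16 TPM in control and 4.11 and 3.97 TPM in Qk_KO.

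The mitochondrial ribosomal protein genes were expressed well above the typical gene in all 4 libraries. All 77 passed the filter of a mean of at least 1 TPM. Their mean levels ran from 7.04 to 266 TPM, with a median of 87.8 TPM against 23.7 TPM over all 13260 genes tested, and 72 of the 77 lay above the latter. The most abundant was Mrps6, a protein of the small-subunit platform, at 254 and 291 TPM in control and 268 and 251 TPM in Qk_KO. It was followed by Mrpl28, at 234 and 239 against 249 and 235 TPM, then Mrps21, Mrpl12 of the flexible stalk that recruits translation factors, and Mrpl20. The values of Mrps6 and Mrpl28 overlapped between groups. Of the 846 bases of the annotated Mrps6 transcript, 305 overlap exons of Gm49711 and 159 exons of Slc5a3. Both genes lie on the same strand as Mrps6, so its level may depend on how reads were assigned. Slc5a3 was at 8.21 and 9.31 TPM in control and 6.44 and 6.23 TPM in Qk_KO. No values were found under the symbol Gm49711. Mrpl12 was at 219 and 252 TPM in control and 211 and 195 TPM in Qk_KO, and Mrpl20 at 191 and 209 against 203 and 214 TPM.

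At the other end of the order stood Mrps25, at 7.22 and 6.83 TPM in control and 6.97 and 7.15 TPM in Qk_KO. Mrpl1, whose bacterial counterpart forms the mobile stalk at the exit site for tRNA, was at 11.5 and 13.6 against 10.99 and 9.81 TPM, and Mrpl35 at 15.3 and 16.8 against 15.6 and 14.8 TPM. Mrpl19 and Mrpl15 came next, with means of 16.9 and 21.4 TPM. The mean levels of Mrps6 and Mrps25 differed by 37.8 times. Over the whole order the steps were small. In 72 of 76 pairs of neighbours, ranked by mean level, the range of one gene's 4 values overlapped that of the next. Mrps25 is a case in which the level may depend on how reads were assigned. Of the 6073 bases of its annotated transcript, 4590 overlap exons of Nr2c2 on the opposite strand, and a near-identical copy also exists.

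Summed over all 77 genes, the family was slightly lower in Qk_KO. The control sums were 7567 and 7795 TPM and the Qk_KO sums 7396 and 7159 TPM, between 0.716% and 0.780% of all transcripts. Both Qk_KO sums were below both control sums, at 7681 ± 161 against 7277 ± 168 TPM (SD, n = 2 per group), a difference of 5.25% of the control level. A two-sided exact permutation test of 2 against 2 libraries gave p = 0.33, the smallest it can give. The large-subunit sum was 4816 and 4938 against 4728 and 4536 TPM, and the small-subunit sum 2647 and 2758 against 2562 and 2516 TPM. The ratio of the subunit sums was 1.82 and 1.79 in control and 1.85 and 1.80 in Qk_KO, with overlapping groups. In bulk RNA, fewer cells of a type and less RNA per cell cannot be told apart.

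**Figure D1:**
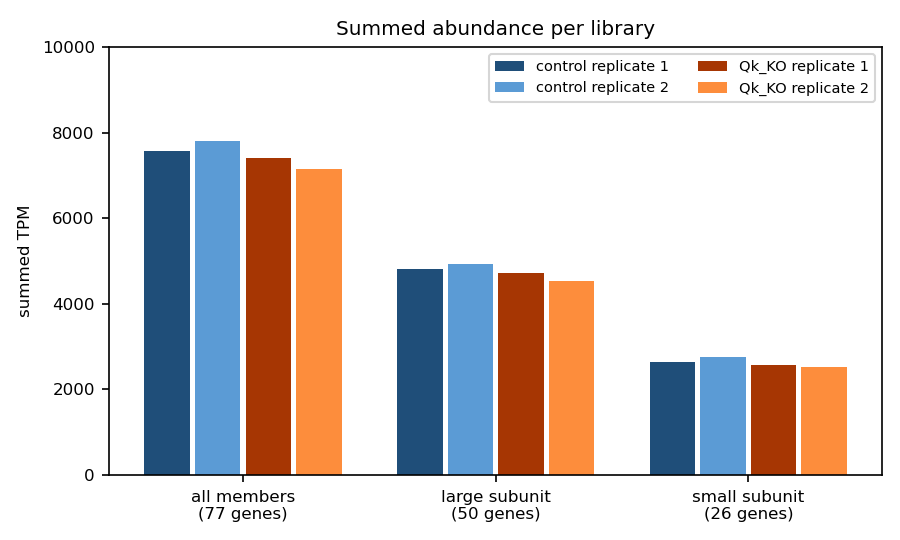
Summed TPM (vertical axis, from 0) of all 77 genes, of the 50 large-subunit and of the 26 small-subunit genes, with 1 bar per library. Both Qk_KO bars are lower than both control bars in each set, and the gap for all genes is 5.25% of the control level.

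Of the single genes, 1, Mrps34, passed the test, and the others were spread on both sides of 0 with more values below it than above. The test was limma on log2(TPM + 1) over all 13260 genes with Benjamini-Hochberg adjustment and a threshold of 0.05. Of the 77 genes, 1 was lower and 0 were higher, beside 1.42% of all genes tested that were lower, 1.83% that were higher and 3.24% in either direction. The family's share of calls was thus near that of all genes. At an unadjusted p under 0.05 in limma, 19 were lower and 3 higher, where 12.6% and 15.8% of all genes were. The median log2 fold change was -0.12, against 0.04 over all genes tested, and 51 of the 77 values were below 0, beside 45.6% of all genes. The groups were fully apart with Qk_KO lower for 35 of the 77 genes and with Qk_KO higher for 12, and they overlapped for 30. Over all genes tested, 27.5% were apart with Qk_KO lower and 33.6% with Qk_KO higher.

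The differences were small beside those of all genes tested, whose median level was lower (23.7 against 87.8 TPM). For 75 of the 77 the log2 fold change was under 0.5 in size, while 19.6% of all genes tested reached that size. The 95% interval of the log2 fold change lay between -0.5 and 0.5 for 47 of the 77 genes and between -1 and 1 for all 77. The median SE of the 77 genes was 0.10, against 0.14 over all genes tested. It was 0.12 over the 6369 genes at 20.5 to 207 TPM, the level range of the middle 90% of the family. The part of expression level in the size of the differences was not tested.

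**Figure D2:**
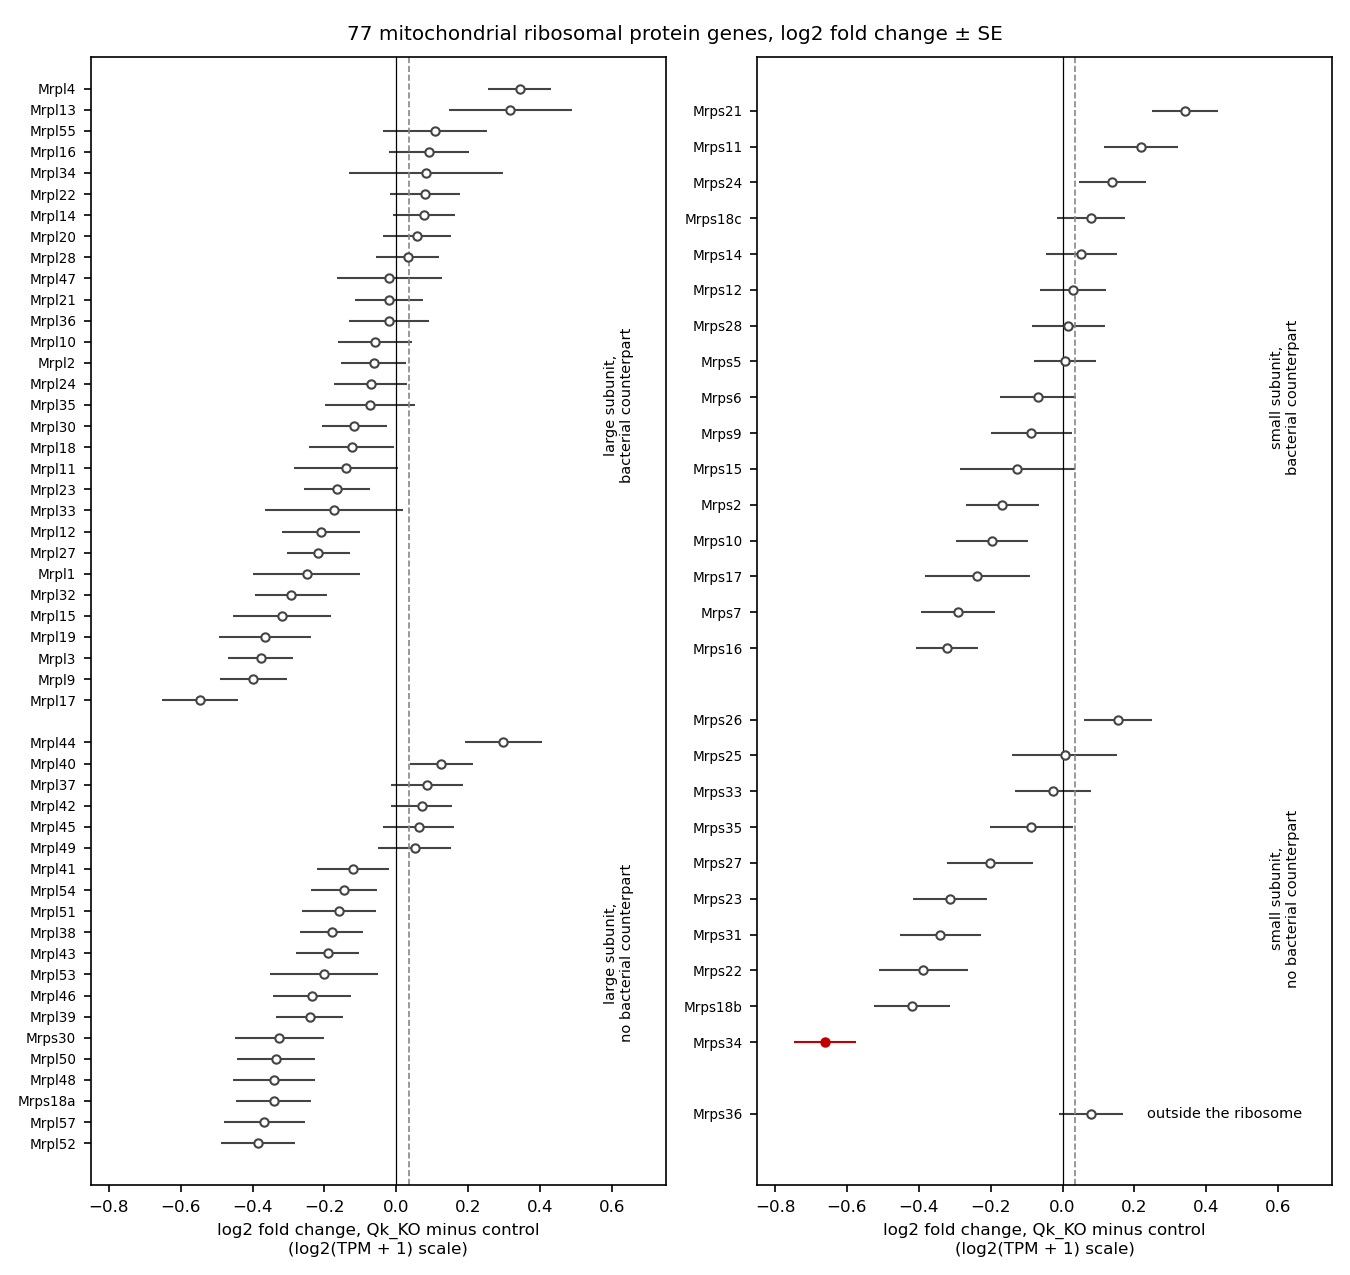
Log2 fold change of Qk_KO minus control on the log2(TPM + 1) scale (horizontal axis) for each of the 77 genes, grouped by subunit and by bacterial counterpart, with bars of 1 SE from limma. The filled point is Mrps34, at -0.66, and the dashed line is the median of all genes tested, at 0.04.

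Mrps34 encodes a small-subunit protein with no bacterial counterpart that is needed to keep the small subunit and its RNA stable, and mutations of the human gene cause Leigh syndrome. Control libraries held 173 and 169 TPM of its transcript, and Qk_KO libraries 108 and 107 TPM. The values within each group were close together and the groups did not overlap. The gene (Entrez gene 79044, chromosome 17 at 24895116 to 24897502, plus strand, GRCm38) fell to 63.1% of control, which is -0.66 on the log2 scale (SE 0.09, 95% interval -0.87 to -0.45), with an adjusted p of 0.0387 in limma. The call was lost without any 1 of the libraries: limma's adjusted p was 0.126 and 0.293 when control replicates 1 and 2 were left out in turn, and 0.115 and 0.0778 when Qk_KO replicates 1 and 2 were, with log2 fold changes of -0.68 to -0.64. It was also lost with no filter on low genes (0.122) and without limma's mean-variance trend (0.078). Of its 918-base transcript, 576 bases overlap exons of Mapk8ip3 on the opposite strand, where reads of both genes cannot be told apart if strand was not used in counting. Mapk8ip3 was at 152 and 142 TPM in control and 127 and 151 TPM in Qk_KO.

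Among large-subunit proteins with a bacterial counterpart, the median log2 fold change of the 30 genes was -0.07. Of the 30, 12 were below in both Qk_KO libraries, 3 above and 15 overlapping, beside 27.5% below and 33.6% above of all genes tested. In limma 0 were called, and 5 were lower and 1 higher at an unadjusted p under 0.05, beside 12.6% and 15.8% of all genes. Mrpl17, whose bacterial counterpart lies near the mouth of the exit tunnel for the new protein, was at 34.6 and 36.2 TPM in control and 23.6 and 24.1 TPM in Qk_KO. That is 67.5% of control with no overlap, and its log2 fold change of -0.55 (SE 0.11) had an adjusted p of 0.0536 by limma, above the threshold. In 4 alternatives it passed, with adjusted p by limma of 0.0477 with the replicate block, 0.0453 with a filter at a mean of 5 TPM, 0.0453 with small RNA genes left out and 0.0383 with the transcript length trend removed, and it did not pass without any 1 library. Mrpl9 was at 89.5 and 94.97 TPM in control and 70.8 and 68.6 TPM in Qk_KO. Mrpl3, which reaches towards the catalytic centre, was at 90.2 and 94.1 against 70.9 and 70.5 TPM. For Mrpl9 and Mrpl3 both Qk_KO values stood below both control values by more than the replicates differed, with log2 fold changes of -0.40 and -0.38 and adjusted p of 0.0701 and 0.0727 by limma.

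Some genes of the same class stood on the other side. Mrpl4, part of the tunnel wall in the bacterial ribosome, was at 130.4 and 124 TPM in control and at 161 TPM in both Qk_KO libraries, 127% of control. Its log2 fold change was 0.34 (SE 0.09, adjusted p = 0.0807 by limma), and 0.20 with the GC trend removed. Mrpl13 was at 139 and 132 TPM in control, and at 200.3 TPM in Qk_KO replicate 1 but 142 TPM in Qk_KO replicate 2. Its difference therefore rested on 1 library, and the log2 fold change went from 0.56 without Qk_KO replicate 2 to 0.07 without Qk_KO replicate 1.

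The same Qk_KO library was the higher of its group for 2 further proteins of the large subunit, Mrpl33 and Mrpl34, which with Mrpl13 had the widest spread between replicates. Mrpl34 was at 129 and 110.1 TPM in control and at 157 TPM in the first and 102 TPM in the second Qk_KO library. Mrpl33 was at 112 and 101 against 115 and 77.5 TPM. In both, the control values lay between the Qk_KO values. Of the 478 bases of the annotated Mrpl33 transcript, 177 overlap exons of Gm43809 on the same strand.

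For the 20 large-subunit genes with no bacterial counterpart, the median was -0.19. Both Qk_KO libraries were below control for 13, above for 3 and overlapping for 4, beside 27.5% below and 33.6% above of all genes. In limma 0 were called, and 7 were lower and 1 higher at an unadjusted p under 0.05, beside 12.6% and 15.8% of all genes. Mrpl52 was at 189.8 and 204 TPM in control and 159.7 and 142 TPM in Qk_KO, and Mrpl57 at 34.0 and 32.8 against 24.4 and 27.0 TPM. Both genes had groups apart, at log2 fold changes of -0.38 and -0.37 with adjusted p of 0.0882 and 0.11 by limma. Mrpl44, whose protein has a fold like that of ribonuclease III and whose human gene is mutated in a cardiomyopathy with respiratory chain deficiency, was higher in both Qk_KO libraries, at 39.6 and 38.5 against 30.2 and 32.9 TPM. Its log2 fold change was 0.30 (adjusted p = 0.144 by limma). Mrpl40 was at 97.1 and 95.3 TPM in control and 103 and 107 TPM in Qk_KO, a difference of 0.13 on the log2 scale (adjusted p = 0.394 by limma), and of 0.021 with the GC trend removed.

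For the 16 small-subunit genes with a bacterial counterpart, the median was -0.03. Here 4 were below in both Qk_KO libraries, 4 above and 8 overlapping, beside 27.5% below and 33.6% above of all genes. In limma 0 were called, and 2 were lower and 1 higher at an unadjusted p under 0.05, beside 12.6% and 15.8% of all genes. Mrps21 was at 218 and 201 TPM in control and 261 and 270.0 TPM in Qk_KO. The groups did not overlap, and the log2 fold change was 0.34 (SE 0.09, adjusted p = 0.0882 by limma). Mrps11 was at 97.2 and 88.6 against 113 and 104 TPM, and Mrps24, which corresponds to the bacterial protein at the entry of the messenger RNA channel, at 125 and 121 against 142 and 130.4 TPM. These too were higher in both Qk_KO libraries, by 0.22 and 0.14 on the log2 scale, and did not pass the test (adjusted p = 0.228 and 0.372 by limma). With the GC trend removed the differences were 0.11 and 0.028, and that of Mrps24 was 0.080 without Qk_KO replicate 1.

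The 10 small-subunit genes with no bacterial counterpart had the lowest median of the 4 classes, -0.26. In this class 6 were below in both Qk_KO libraries, 1 above and 3 overlapping, beside 27.5% below and 33.6% above of all genes. Besides Mrps34, 4 more were lower at an unadjusted p under 0.05 in limma, and 0 were higher, beside 12.6% and 15.8% of all genes. Mrps18b was at 104 and 114 TPM in control and 77.1 and 85.4 TPM in Qk_KO. Mrps22, mutated in an infantile respiratory chain deficiency in humans, was at 44.0 and 52.8 against 36.6 and 36.7 TPM. Both had groups apart, with log2 fold changes of -0.42 and -0.39 and adjusted p of 0.0793 and 0.119 by limma. Mrps26 stood above control in both Qk_KO libraries, at 89.2 and 95.9 against 82.4 and 83.6 TPM (log2 fold change 0.15, adjusted p = 0.328 by limma), a difference of 0.10 without Qk_KO replicate 2. The difference between the 4 classes was not tested.

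**Figure D3:**
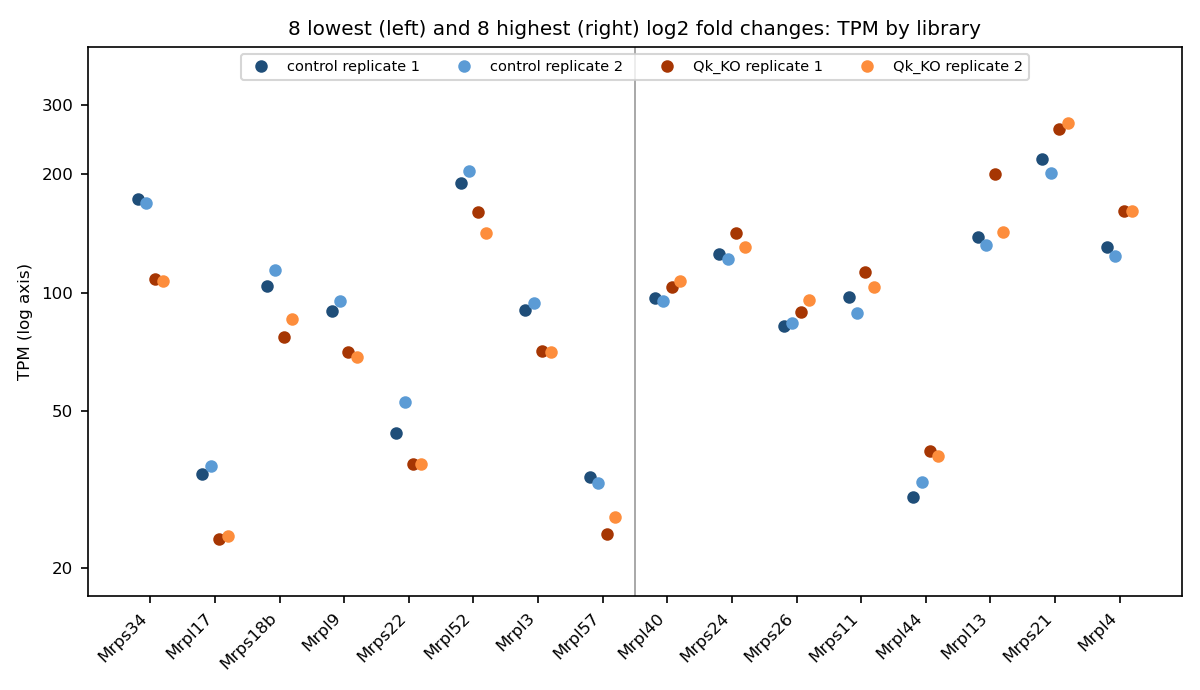
TPM in each of the 4 libraries (log axis) for the 8 genes with the lowest and the 8 with the highest log2 fold change. The groups do not overlap for any of the 16 genes. The genes were picked by fold change in these same libraries, which favours groups apart, so this adds no support to the differences. Of all genes tested, 27.5% were apart with Qk_KO lower and 33.6% with Qk_KO higher. Mrpl13 has 1 Qk_KO value at 200.3 and the other at 142 TPM.

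The Mrps18 paralogues stood in different places. Mammals carry 3 genes related to a single bacterial protein, and their products occupy different sites. Mrps18c occupies that of the bacterial protein, Mrps18b another site of the small subunit and Mrps18a the large subunit. In the classes above, only Mrps18c was counted as having a bacterial counterpart, although all 3 are related to that protein. Mrps18a was at 125 and 127 TPM in control and 106 and 92.9 TPM in Qk_KO, a log2 fold change of -0.34 (95% interval -0.60 to -0.08, adjusted p = 0.109 by limma). For Mrps18b, whose values are given above, the interval was -0.68 to -0.15. Mrps18c was at 72.8 and 68.7 TPM in control and 73.6 and 75.9 TPM in Qk_KO, a log2 fold change of 0.08 (95% interval -0.15 to 0.31, adjusted p = 0.612 by limma). The difference between the paralogues was not tested, and Mrps18b has a near-identical copy that could share its reads. Of the 1079 bases of the Mrps18b transcript, 638 also overlap exons of Gm16279 on the opposite strand. Of the 638 bases of the Mrps18c transcript, 174 overlap exons of Gm43511 on the same strand. Mrps36 of the oxoglutarate dehydrogenase complex was at 103 and 98.8 TPM in control and 106 and 107 TPM in Qk_KO.

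Other genes of mitochondrial translation were read from lists of the pathway's parts. Of 6 mitoribosome proteins under other symbols, 0 were called and the median log2 fold change was -0.10, with Ict1, a hydrolase built into the large subunit, at 175 and 163 against 162 and 166 TPM, and Chchd1 at 135 and 144 against 123 and 119 TPM. None of these 6 had an unadjusted p under 0.05 in limma. Of 27 assembly factors and rRNA-modifying enzymes 0 were called (6 lower and 1 higher at an unadjusted p under 0.05 in limma), with a median of -0.03. Of the 17 translation factors 0 were called (4 lower and 0 higher unadjusted), with a median of -0.12. Tufm, the elongation factor that brings tRNA to the ribosome, was at 159.98 and 169 TPM in control and 165 and 181 TPM in Qk_KO. Slirp, which stabilizes mitochondrial messenger RNA, was at 129 and 141 against 107 and 96.8 TPM, with groups apart and an adjusted p of 0.079 by limma. For the 17 mitochondrial tRNA synthetases the median was -0.11 with 0 called (4 lower and 2 higher unadjusted). For 19 genes of mtDNA maintenance, transcription and RNA processing it was -0.18 with 0 called (6 lower and 2 higher unadjusted). All these unadjusted counts stand beside 12.6% lower and 15.8% higher of all genes tested.

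Genes of mitochondrial protein import and mitochondrial chaperones, taken as 1 list, had a median like that of the ribosomal proteins, -0.12 over 30 genes. Of these, 1 was called lower, 0 higher and 29 not. Of all genes tested, 1.42% were called lower and 1.83% higher. Both Qk_KO values were below both control values for 16 of the 30 and above for 3, beside 27.5% and 33.6% of all genes. At an unadjusted p under 0.05 in limma 9 were lower and 1 higher, beside 12.6% and 15.8% of all genes. The gene called was Hspe1, the co-chaperonin of the matrix. It fell from 331 and 395 TPM to 214 and 207 TPM (log2 fold change -0.78, adjusted p = 0.0426 by limma). The 75 nuclear-encoded subunits of the respiratory chain and ATP synthase had a median of 0.07, against 0.04 over all genes tested. Values below 0 numbered 25 of the 75, beside 45.6% of all genes. Both Qk_KO libraries were above control for 33 of the 75 and below for 8 of the 75, beside 33.6% and 27.5% of all genes. Of these 75, 0 were called, and 15 were higher and 1 lower at an unadjusted p under 0.05 in limma, beside 15.8% and 12.6% of all genes. Atp5b, the catalytic subunit of ATP synthase, was at 2457 and 2482 TPM in control and 2756 and 3052 TPM in Qk_KO, and Cox6a1 at 2004 and 1846 against 2342 and 2210.3 TPM. The products of the mitochondrial ribosome were not analysed here, since 0 of the 28 symbols searched for the mitochondrial genome matched. Synonyms were not searched for this list, so genes listed under other symbols could have been missed.

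The 79 cytosolic ribosomal proteins lay lower than their mitochondrial counterparts. Their median log2 fold change was -0.31, and both Qk_KO values were below both control values for 65 of the 79 and above for 1, beside 27.5% and 33.6% of all genes. The genes called were 2, both lower, beside 1.42% of all genes called lower. At an unadjusted p under 0.05 in limma 46 were lower and 0 higher, beside 12.6% and 15.8% of all genes. Rpl36 fell from 2295 and 2349 TPM to 1570 and 1512 TPM (adjusted p = 0.0429 by limma), and Rpl22 from 254 and 282 TPM to 166 and 178 TPM (adjusted p = 0.0431). The difference between the lists was not tested.

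**Figure D4:**
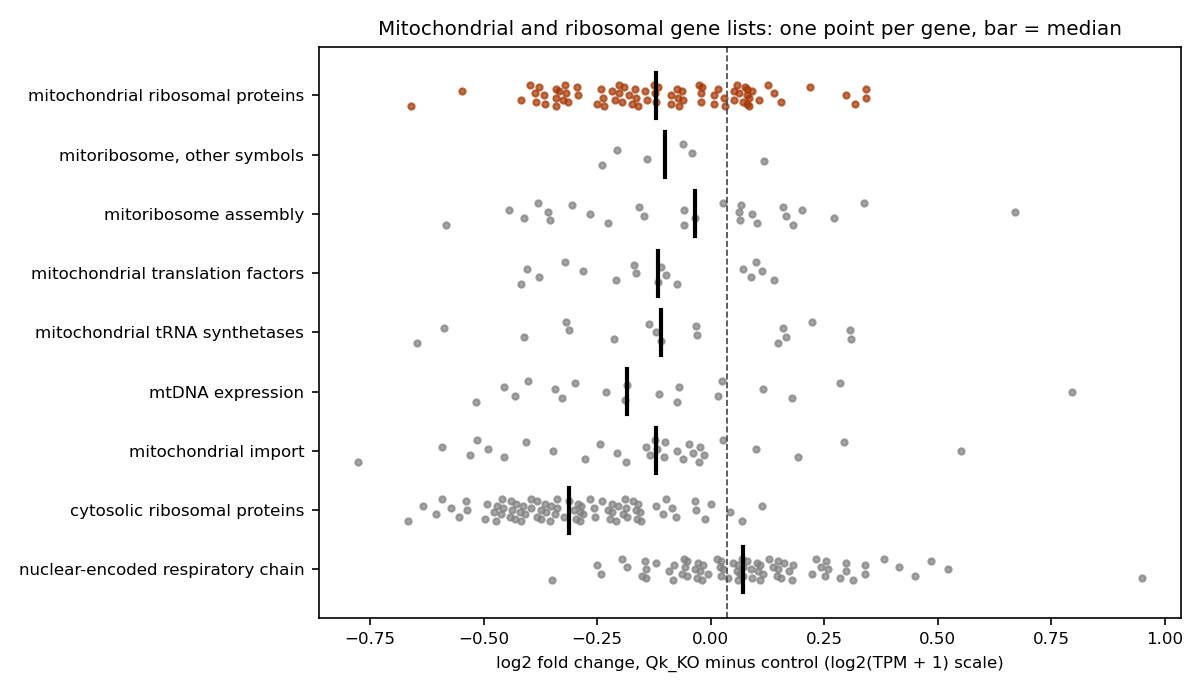
Log2 fold change of Qk_KO minus control on the log2(TPM + 1) scale, with 1 point per gene, for the mitochondrial ribosomal proteins (coloured) and 8 other gene lists. Black bars are medians, from -0.31 for cytosolic ribosomal proteins to 0.07 for the nuclear-encoded respiratory chain, and the dashed line is the median of all genes tested.

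Known regulators of nuclear genes for mitochondrial proteins were in 10 of 11 cases abundant enough to be tested, and 0 were called. At an unadjusted p under 0.05 in limma 3 were lower and 1 higher, beside 12.6% and 15.8% of all genes. Yy1 was at 73.2 and 77.9 TPM in control and 69.2 and 75.5 TPM in Qk_KO, and Gabpb1 at 59.5 and 59.0 against 63.5 and 65.2 TPM. The 4 genes at that unadjusted p are given after their values were seen. Myc was at 48.6 and 69.2 against 23.4 and 36.7 TPM, Ppargc1a, the coactivator of mitochondrial biogenesis, at 12.2 and 16.9 against 24.7 and 24.2 TPM, and Gabpa at 29.9 and 33.5 against 24.2 and 24.7 TPM. Pprc1, a relative of Ppargc1a, was at 40.6 and 43.4 against 31.3 and 32.5 TPM. Myc, Gabpa and Pprc1 were thus low and Ppargc1a high in both Qk_KO libraries.

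Transcripts of the family were short, with a median of 1226 bases and a coding length of 576 bases, against 3022.5 and 1398 bases over 12290 protein-coding genes tested. Their GC content was typical, at a median of 50.7% against 50.6%. A Quaking-type motif, ACTAAC or ACTAAT on the sense strand, was present in the annotated 3′ UTR of 19 of the 77 genes (24.7%) and of 31.4% of those protein-coding genes. Per 1000 bases of 3′ UTR there were 0.328 such motifs in the family and 0.34 in all. The median log2 fold change was -0.25 in the 19 genes with the motif and -0.07 in the 58 without it, beside -0.03 and 0.07 for all protein-coding genes tested with and without it. Members with the motif had a median 3′ UTR of 2746 bases, those without it of 297.5 bases, so motif and length move together, and their part in the difference was not tested.

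Markers of cell types and of division also moved with the groups, and their part in the results above was not tested. Of all genes tested, 27.5% were lower and 33.6% higher in both Qk_KO libraries, and 1.42% and 1.83% were called lower and higher. At an unadjusted p under 0.05 in limma, 12.6% were lower and 15.8% higher. All 10 mitosis genes listed were higher in both Qk_KO libraries, 4 of them called, with a summed level of 125 to 183 TPM in control and 299.6 to 322 TPM in Qk_KO. The 8 neuron markers summed to 321 to 509 TPM in control and 720.5 to 792 TPM in Qk_KO. The largest parts were Tubb3, at 275 and 126 TPM in control and 512 and 383 TPM in Qk_KO, and Map2. Map2 was at 143 and 135 against 133 and 149 TPM, with overlapping groups. Of the 8, 4 were higher in both Qk_KO libraries and 4 overlapped, and Ina and Snap25 were called higher. The 9 microglia and macrophage markers summed to 34.6 to 40.8 TPM in control and 12.4 to 19.3 TPM in Qk_KO, with 6 of 6 tested lower in both Qk_KO libraries and 0 called (5 lower at an unadjusted p under 0.05 in limma), and Ptprc at no more than 0.24 TPM. The 9 astrocyte markers summed to 651 to 724 TPM in control and 538 to 587 TPM in Qk_KO, and went both ways. The glutamate transporter Slc1a3 fell from 338 and 435 TPM to 117 and 150.04 TPM (adjusted p = 0.0324 by limma), while the water channel Aqp4 rose from 3.83 and 4.88 TPM to 29.3 and 35.1 TPM (adjusted p = 0.0123). In all, 3 of the 9 were lower and 2 higher in both Qk_KO libraries.

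The 8 oligodendrocyte lineage markers had a median log2 fold change of -0.69. Both Qk_KO values were lower for 5, higher for 0 and overlapping for 3, beside 27.5% lower and 33.6% higher of all genes. At an unadjusted p under 0.05 in limma 4 were lower, beside 12.6% of all genes. Pdgfra, the growth factor receptor of oligodendrocyte precursors, fell from 53.1 and 35.8 TPM to 5.37 and 12.1 TPM (adjusted p = 0.0461 by limma). Sox10, given after its values were seen, was at 17.2 and 40.8 TPM in control and 2.38 and 7.55 TPM in Qk_KO (adjusted p = 0.0701 by limma). The summed level of the list, 1046 to 1244 TPM in control and 963 to 1166 TPM in Qk_KO, overlapped, and most of it came from Olig1 and Olig2, whose values overlapped between groups. Of 7 neural stem cell markers tested, Pax6 rose from 24.0 and 17.9 TPM to 48.9 and 45.8 TPM (adjusted p = 0.0423 by limma), and the other 6 were not called. The 7 mesenchymal markers summed to 1163 to 1330 TPM in control and 1633 to 3515 TPM in Qk_KO, nearly all of it Acta2, with 0 of 4 tested called (1 higher and 1 lower at an unadjusted p under 0.05 in limma).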

How the data were processed

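The authors deposited TPM per gene, in a table for each library that pairs Entrez numbers with symbols. Poly(A)-selected RNA was read on an Ion Proton, per the labels' protocols. The submitters' processing notes list STAR 2.4.1d, RSEM 1.3.0, mm10 and GRCm38.p4. Not given in the sources used here are annotation, strand setting and read filters. Because TPM is a share, abundant genes that rise push others down.

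Genes averaging 1 TPM or more, 13260 in all, were tested on log2(TPM + 1) with limma 3.58.1 (mean-variance trend, 5.57 degrees of freedom) in R 4.3.3, two-sided, with 2 libraries per group and no covariate. Fold changes on that scale understate the change of low genes. Nothing was adjusted over the 77 genes alone. The genes, lists and the rule for named genes were chosen with earlier results of these data known. The rule took called genes, the 8 lowest and 8 highest log2 fold changes, the 5 highest and 5 lowest levels, the 3 widest spreads, the Mrps18 genes and, per list, up to 4 called genes or the 2 most abundant. The fit was also run on simulated data. The changes put into them were all larger than any in the 77 genes, so that run does not show how well changes of their size are found. Transcript features came from GENCODE M21 (GRCm38). Exons of 27 of the 77 genes overlap another gene, and 17 have a copy of at least 95% identity over 300 bases (BLAST 2.17.0). Alternatives were pseudocounts of 0.1 and 0.5, other filters, scalings and limma settings, small RNA genes left out, GC or length trends removed, the replicate number as a block, and each library left out. Figures used matplotlib 3.10.9.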

Additional observations from a re-analysis of the deposited data

How the results depend on the processing

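The number of the 77 genes called was 1 (Mrps34). The count fell to 0 if low genes were not filtered out, without the mean-variance trend and without any 1 of the 4 libraries, and 2 (Mrps34 and Mrpl17, both lower) with the filter set at a mean of 5 TPM, with small RNA genes left out and with the transcript length trend removed. With the replicate block it was also 2. The replicate numbers come from the labels without a stated pairing, and deviations of same-numbered libraries from their group means correlated at 0.11 over 13260 genes. In limma Mrpl17 had adjusted p of 0.0453, 0.0453, 0.0383 and 0.0477 in these 4 settings. The median log2 fold change, -0.12, was -0.15 with median-ratio scaling, -0.14 with quantile normalization, -0.16 with the GC trend removed and -0.14 to -0.082 without 1 library. The difference in summed TPM, -403, was -582 with median-ratio scaling and -522 to -285 without 1 library. Genes below 0 numbered 46 to 56 without 1 library. Of 29 named genes, 7 changed sign somewhere, all with a log2 fold change of at most 0.17 in size. With median-ratio scaling Mrps25 was at -0.023 and Mrpl28 at -0.0019, with quantile normalization Mrps25 at -0.12, with the GC trend removed Mrpl35 at 0.012, Mrpl20 at -0.028, Mrpl28 at -0.10 and Mrpl34 at -0.050, and with the length trend removed Mrps25 at -0.043. Without 1 library, Mrps25 ran from -0.028 to 0.042, Mrpl28 from -0.010 to 0.075, Mrpl20 from -0.0074 to 0.12, Mrpl34 from -0.22 to 0.39, Mrpl33 from -0.45 to 0.11 and Mrps6 from -0.17 to 0.027. With the GC trend removed, values of 6 named genes at 0.1 or more in size moved by over 1.5 times without changing sign: Mrpl4 to 0.20, Mrps11 to 0.11, Mrps24 to 0.028, Mrpl40 to 0.021, Mrpl1 to -0.12 and Mrpl12 to -0.33. Without 1 library, Mrpl12 reached -0.11 and Mrpl1 -0.14 (control replicate 2 left out) and Mrpl15 -0.19 (Qk_KO replicate 2 left out). The cause of these changes was not tested. Depth is unknown, and 2 libraries per group limit the precision.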

Other observations

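The 8 genes of the family on chromosome 17, which also carries Qk, had a median log2 fold change of -0.16, with 5 below control in both Qk_KO libraries and 1 above. The 69 on other chromosomes had a median of -0.12, with 30 below and 11 above. The 599 genes tested on chromosome 17 had a median of 0.04, with 149 below and 219 above, beside 27.5% and 33.6% of all genes tested. The difference was not tested. Among the 8 were Mrps34, Mrps18b and Mrps18a at the low end and Mrpl28 near 0. Genes of the family above its own median level had a median log2 fold change of -0.07, and those at or below it of -0.13. The 27 genes whose exons overlap another gene had a median of -0.12, and so did the 50 others.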
